A study of Mus musculus with 6 samples.

Results

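The Nr4a orphan nuclear receptors are encoded in the mouse by 3 genes, Nr4a1 (Nur77), Nr4a2 (Nurr1) and Nr4a3 (NOR1), and are described here in bone marrow stem and progenitor cells with and without the melanocortin receptor gene Mc5r. The 3 genes were taken by their symbols from a table of 55487 genes, because earlier results of these data had drawn attention to them in the comparison of genotypes. Their differences between genotypes are therefore given as a description, with no test. All 3 passed the filter on low counts, as did 15257 genes in all.

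Poly-A RNA was sequenced, as stranded paired-end libraries, from LSK cells, the lineage-negative, Sca-1-positive, Kit-positive fraction of mouse bone marrow that holds the blood stem cells and early multipotent progenitors. There were 3 libraries from Mc5r-null (Mc5r-/-) mice and 3 from littermate WT mice. According to the series' design text all of these mice had been irradiated, and no unirradiated library was analysed here. The radiation dose, the time after it, the strain, the age, the kind of Mc5r allele and the number of mice behind each library are not given in the sources used here, so the spread between libraries of 1 genotype may be technical as well as biological.

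Nr4a proteins are transcription factors for which no physiological ligand that switches them on is established, so their activity is set largely by how much of them is made. Their genes are immediate early genes, transcribed within minutes of a signal such as cyclic AMP acting through CREB, calcium acting through MEF2 and NFAT, or antigen receptor engagement, and their messages decay quickly. The proteins bind the NBRE, an extended nuclear receptor half-site, as monomers, and Nr4a1 and Nr4a2 also bind DNA with RXR. In mouse blood formation, Nr4a1 and Nr4a3 are known for restraining the proliferation of stem cells and for suppressing myeloid leukaemia, and Nr4a1 is needed for non-classical monocytes. Melanocortin receptors couple to Gs and raise cyclic AMP.

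The sequence before each start site is shown because cyclic AMP response elements in these promoters are a classical route of their induction. The stretches are RefSeq promoter windows of build GRCm38.p6, in transcript direction, limited to the bases before the start site shown, at chr15:101266596-101266845 on the plus strand for Nr4a1, chr2:57124004-57124253 on the minus strand for Nr4a2 and chr4:48045055-48045152 on the plus strand for Nr4a3. An annotated Nr4a1 transcript also starts upstream of its window. Capitals mark the cyclic AMP response element half-site TGACG, which reads CGTCA where it lies on the other strand.
Nr4a1: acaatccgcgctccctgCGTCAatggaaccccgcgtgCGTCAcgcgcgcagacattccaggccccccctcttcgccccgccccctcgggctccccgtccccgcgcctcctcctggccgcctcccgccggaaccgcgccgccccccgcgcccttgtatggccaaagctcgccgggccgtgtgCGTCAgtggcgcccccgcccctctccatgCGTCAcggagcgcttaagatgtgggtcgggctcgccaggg
Nr4a2: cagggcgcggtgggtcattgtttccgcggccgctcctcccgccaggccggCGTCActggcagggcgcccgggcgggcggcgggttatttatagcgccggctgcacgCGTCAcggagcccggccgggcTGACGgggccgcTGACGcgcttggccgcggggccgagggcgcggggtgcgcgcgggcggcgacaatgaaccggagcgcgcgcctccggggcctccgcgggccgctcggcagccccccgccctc
Nr4a3: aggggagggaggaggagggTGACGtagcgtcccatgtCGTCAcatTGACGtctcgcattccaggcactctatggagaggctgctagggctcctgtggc
Each full window of 300 bases, 250 before and 50 after the start site, held 4 half-sites. In Nr4a1 all 4 were on the minus strand, at positions -233, -213, -69 and -40 from the start. In Nr4a2 they lay at -200 and -144 on the minus strand and at -123 and -111 on the plus strand. In Nr4a3 they lay at -231, -205 and -147 on the plus strand and at -213 on the minus strand. The one at -147 falls in an annotated first exon and so lies outside the stretch printed. These Nr4a3 positions count from the RefSeq start, which lies inside the gene, downstream of the annotated start at 48045153. The printed stretch ends just before 48045153, so its sites lie nearer to that annotated start than the positions say. Of 32851 RefSeq windows of the same length, 20.8% held at least 1 half-site and 76 (0.231%) held at least 4. These promoters are rich in G and C, at 72.3%, 81.7% and 64.7% against a median of 52.7%, and among the 6218 windows with at least 64.7% G and C the share with 4 or more half-sites was 0.563%. The full element TGACGTCA, found in 1.79% of windows, was in none of the 3. The same held for the NBRE AAAGGTCA (1.51% of windows), the AP-1 site TGANTCA (7.81%) and the CArG box of serum response factor (1.63%), each searched on both strands. A MEF2 site, present in 3.19% of windows, was found once, in Nr4a2 at -167. A match is a run of letters and not a measured binding event.

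The gene models differ in their starts. Nr4a1 spans chr15:101254269-101274795 on the plus strand of GRCm38 and has 3 protein-coding transcripts. The window above precedes the start that 2 of them share at 101266846, whereas the third starts upstream at 101254269. Nr4a2 spans chr2:57106830-57124003 on the minus strand with 3 protein-coding transcripts, and its window precedes the longest one. The others start downstream, at 57115038 and 57113072, and the sequence before those starts was not searched. Nr4a3 spans chr4:48045153-48086447 on the plus strand with 2 protein-coding transcripts. The stretch printed for Nr4a3 precedes the one that starts at 48045153, whereas the other starts downstream at 48049114. At 5.987 kb, Nr4a3 has the longest merged exons of the 3 genes, against 4.059 kb for Nr4a2 and 3.509 kb for Nr4a1. The counts are per gene, so transcripts from different starts were not told apart.

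The libraries were of even depth, with 13983016 to 14076870 gene counts in the Mc5r-null libraries and 14903723 to 14953169 in the WT libraries. The deleted gene went with its labels, with 0, 0 and 1 count of Mc5r in the Mc5r-null libraries and 181, 157 and 198 in the WT libraries. Kit averaged 256 CPM (counts scaled to the library's total) in Mc5r-null and 241 CPM in WT cells, and Ly6a, which encodes Sca-1, averaged 66.6 and 59.3 CPM, so both genes of the gate were detected. Across all genes tested, edgeR's quasi-likelihood test with Benjamini-Hochberg adjustment called 32.9%, 2567 higher (16.8%) and 2456 lower (16.1%) in Mc5r-null cells, and the median log2 fold change was -0.0047. A count of members or of list genes is read against those shares. Immunoglobulin transcripts made up 6.87, 6.92 and 6.96% of the counts in Mc5r-null libraries and 2.15, 2.15 and 2.14% in WT libraries.

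Nr4a1 was the abundant member, and its transcript level in the Mc5r-null libraries was about 2.02 times that in the WT libraries. Nr4a2 was 1.42 times as high in Mc5r-null cells as in WT cells, with closely spaced replicates. Nr4a3, the scarcest, was higher than WT in 2 Mc5r-null libraries and lower than WT in the other one. The log2 fold changes that follow are the fitted ones of edgeR, Mc5r-null over WT.

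Nr4a1, the receptor most studied in stem cell quiescence and in antigen receptor signalling, had 40531, 33177 and 39971 counts in Mc5r-null replicates 1, 2 and 3, against 22019, 17581 and 21741 counts in WT replicates 1, 2 and 3. Scaled to library totals this was 2884, 2357 and 2859 CPM in the Mc5r-null libraries, against 1473, 1178 and 1459 CPM in the WT libraries. All 3 Mc5r-null libraries lay above all 3 WT libraries, with the lowest Mc5r-null value far above the highest WT value. The means were 2699.7 ± 297 CPM in Mc5r-null and 1370 ± 166 CPM in WT cells (SD, n = 3 each). The fitted log2 fold change was 1.01 ± 0.135 (SE), and 3.54% of the genes tested had a larger one. In these bulk libraries, fewer cells of a type and less RNA per cell cannot be told apart, here and in every value below.

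Replicate 2 was the lowest Nr4a1 library in both genotypes. The library of that number held 2357 CPM in Mc5r-null and 1178 CPM in WT cells, while the other 2 libraries of each genotype were close to each other. Such a pattern, with replicate 2 lowest in both genotypes, was shared by 1190 of the 9985 genes with a mean of at least 10 CPM (11.9%). That share is close to what unrelated orders of the 3 libraries in each genotype would give. Nothing in the labels says that libraries of 1 number belong together.

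Nr4a2, best known as the receptor that midbrain dopamine neurons need, had 765, 761 and 790 counts in the Mc5r-null libraries, against 576, 585 and 619 counts in the WT libraries. This was 54.4, 54.1 and 56.5 CPM in Mc5r-null and 38.5, 39.2 and 41.5 CPM in WT libraries. The genotypes did not overlap, and each was tight around its mean, at 55.0 ± 1.31 CPM in Mc5r-null and 39.7 ± 1.58 CPM in WT cells (SD, n = 3 each). The fitted log2 fold change was 0.50 ± 0.048 (SE), with a larger one in 11.2% of genes. By replicate number the ratios were 1.41, 1.38 and 1.36.

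Nr4a3, which acts redundantly with Nr4a1 in mouse myeloid cells, had 413, 176 and 431 counts in the Mc5r-null libraries, against 274, 276 and 254 counts in the WT libraries. In CPM these were 29.4, 12.5 and 30.8 in Mc5r-null and 18.3, 18.5 and 17.0 in WT libraries. Mc5r-null replicates 1 and 3 lay above every WT library and Mc5r-null replicate 2 lay below every WT library, so the genotypes overlapped. The means were 24.2 ± 10.2 CPM in Mc5r-null and 18.0 ± 0.791 CPM in WT cells (SD, n = 3 each), and the fitted log2 fold change was 0.47 ± 0.368 (SE). Without Mc5r-null replicate 2 it was 0.78 ± 0.075, without Mc5r-null replicate 1 it was 0.30 ± 0.433 and without Mc5r-null replicate 3 it was 0.26 ± 0.407. The ratios by replicate number were 1.60, 0.676 and 1.81.

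**Figure D1:**
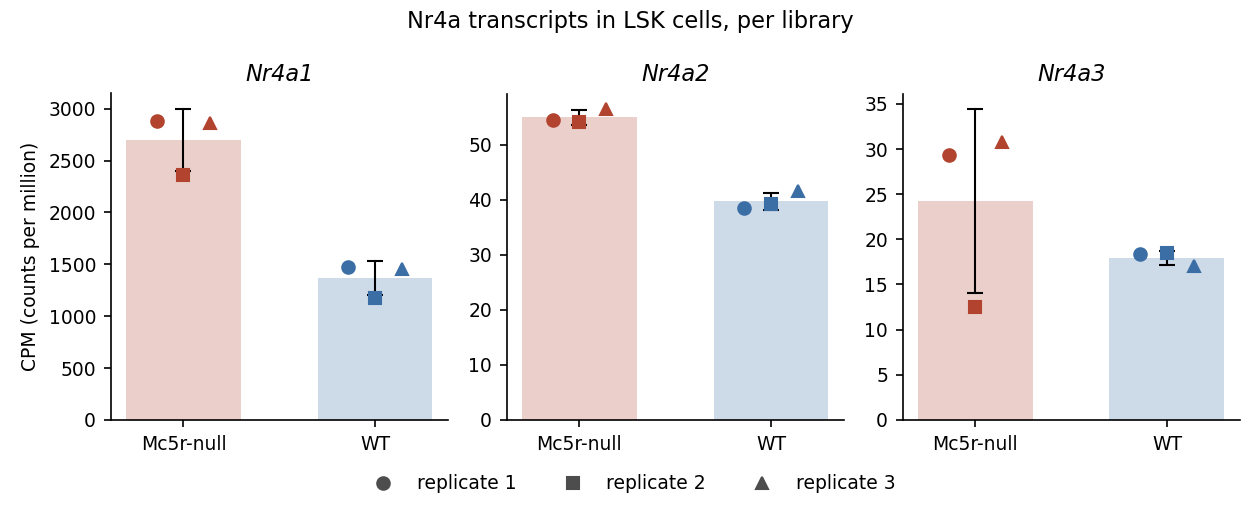
CPM of Nr4a1, Nr4a2 and Nr4a3 in each library, with bars at the mean and error bars of 1 SD (n = 3 libraries per genotype), each gene on its own axis from 0. The genotypes are apart for Nr4a1 and Nr4a2, while the Mc5r-null libraries of Nr4a3 split into 29.4 and 30.8 CPM on one side and 12.5 CPM on the other.

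Of the 3 genes, then, Nr4a1 and Nr4a2 were higher without overlap between genotypes, as were 21% of all genes tested, and no gene of the family was lower without overlap, as were 28.7%. Because the genes were chosen on this contrast, nothing is read from that count. All 3 fitted log2 fold changes were positive under the main TMM scaling and under each of the other scalings tried, at 0.98 to 1.02 for Nr4a1, 0.47 to 0.51 for Nr4a2 and 0.36 to 0.47 for Nr4a3 over all alternatives that kept the 6 libraries.

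The low Nr4a3 value lay beyond counting error. Its 176 counts have an exact 95% Poisson interval of 10.7 to 14.5 CPM, which stays below the intervals of all 3 WT libraries, the lowest of which begins at 15.01 CPM. Mc5r-null replicate 2 did not stand out in general. It held 31 genes (0.310% of 9985), Nr4a3 among them, at or below a ratio of 0.5 to both other libraries of its genotype, while the other 5 libraries held 25 to 39 such genes. In the same library Nr4a2 stood level with its replicates, and Nr4a1 was 2357 CPM.

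The replicate spread stood in different ratios to counting error in the 3 genes. The SD of Nr4a2 was 0.663 times the SD that counting gives in Mc5r-null and 0.970 times in WT cells. For Nr4a1 the same ratios were 21.4 in Mc5r-null and 17.4 in WT cells, at counts of 17581 to 40531. Nr4a3 had a ratio of 7.76 in Mc5r-null cells and 0.721 in WT cells. Each of these SDs rests on 3 libraries. As biological coefficients of variation estimated in the fit, the values were 0.115 for Nr4a1, 0.0682 for Nr4a2 and 0.308 for Nr4a3. Among genes within 1 log2 CPM of each, 94.5% varied less than Nr4a1, 29.2% less than Nr4a2 and 97.5% less than Nr4a3.

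Levels of different genes can be set side by side only per length of transcript. On the deposited FPKM scale (counts scaled by gene length and library total), Nr4a1 had 761, 622 and 754 in Mc5r-null and 389, 311 and 385 in WT libraries. Nr4a2 had 8.55, 8.50 and 8.88 FPKM in Mc5r-null and 6.05, 6.16 and 6.53 FPKM in WT libraries, and Nr4a3 had 2.66, 1.13 and 2.79 FPKM in Mc5r-null and 1.66, 1.68 and 1.55 FPKM in WT libraries. The order Nr4a1, Nr4a2, Nr4a3 was the same in each of the 6 libraries, and the ranges of neighbouring genes did not meet.

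The lengths behind these FPKM values count overlapping exons of different transcripts more than once. In 97.8% of 12587 genes compared, the length implied by the FPKM was the summed length of distinct exons within 0.5%, which is 1.08 times the merged exon length for Nr4a1, 1.57 times for Nr4a2 and 1.84 times for Nr4a3. The FPKM therefore understates Nr4a2 and Nr4a3 relative to Nr4a1. With merged exons, a measure added after the files were seen, Nr4a1 had 769 ± 84.7 CPM per kb in Mc5r-null and 390 ± 47.4 in WT cells (SD, n = 3 each). Nr4a2 had 13.5 ± 0.323 CPM per kb in Mc5r-null and 9.79 ± 0.390 in WT cells, and Nr4a3 had 4.05 ± 1.70 in Mc5r-null and 3.00 ± 0.132 in WT cells.

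By this measure Nr4a1 was 56.8 times Nr4a2 in Mc5r-null and 39.9 times in WT cells, and 190 times Nr4a3 in Mc5r-null and 130 times in WT cells. By the deposited FPKM the same ratios were 82.4 and 57.9 for Nr4a2, and 368 and 223 for Nr4a3, as means over libraries. Nr4a1 made up 97.8% of the summed per-length level of the 3 genes in Mc5r-null and 96.8% in WT cells. It ranked 105 in Mc5r-null and 186 in WT cells among 15239 genes by level per kb, and took 0.236 to 0.288% of all gene counts in Mc5r-null libraries and 0.118 to 0.147% in WT libraries.

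Nr4a1 was also the most abundant nuclear receptor message. Among 49 nuclear receptor genes with 46 outside the family, Nr4a1 came first in both genotypes and held 82.9% of the summed CPM per kb in Mc5r-null and 73.4% in WT cells. The next receptors were Rxrb, the retinoid X receptor with which Nr4a1 can dimerise, at 29.0 in Mc5r-null and 25.3 in WT cells, and Nr1h2, the sterol receptor LXR beta, at 26.6 and 27.8. Nr4a2 came at rank 4 in Mc5r-null cells with 13.3 to 13.9 CPM per kb, next to the thyroid hormone receptor gene Thra at 12.8 to 13.2. In WT cells Nr4a2 came at rank 6 with 9.49 to 10.2 CPM per kb, inside the range of the glucocorticoid receptor gene Nr3c1 at 8.18 to 11.8. Nr4a3 came at rank 14 in both genotypes. Its libraries overlapped there with those of Rxra, the partner in NR4A heterodimers, which had 3.76 to 4.30 CPM per kb in Mc5r-null and 2.69 to 3.13 in WT libraries.

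**Figure D2:**
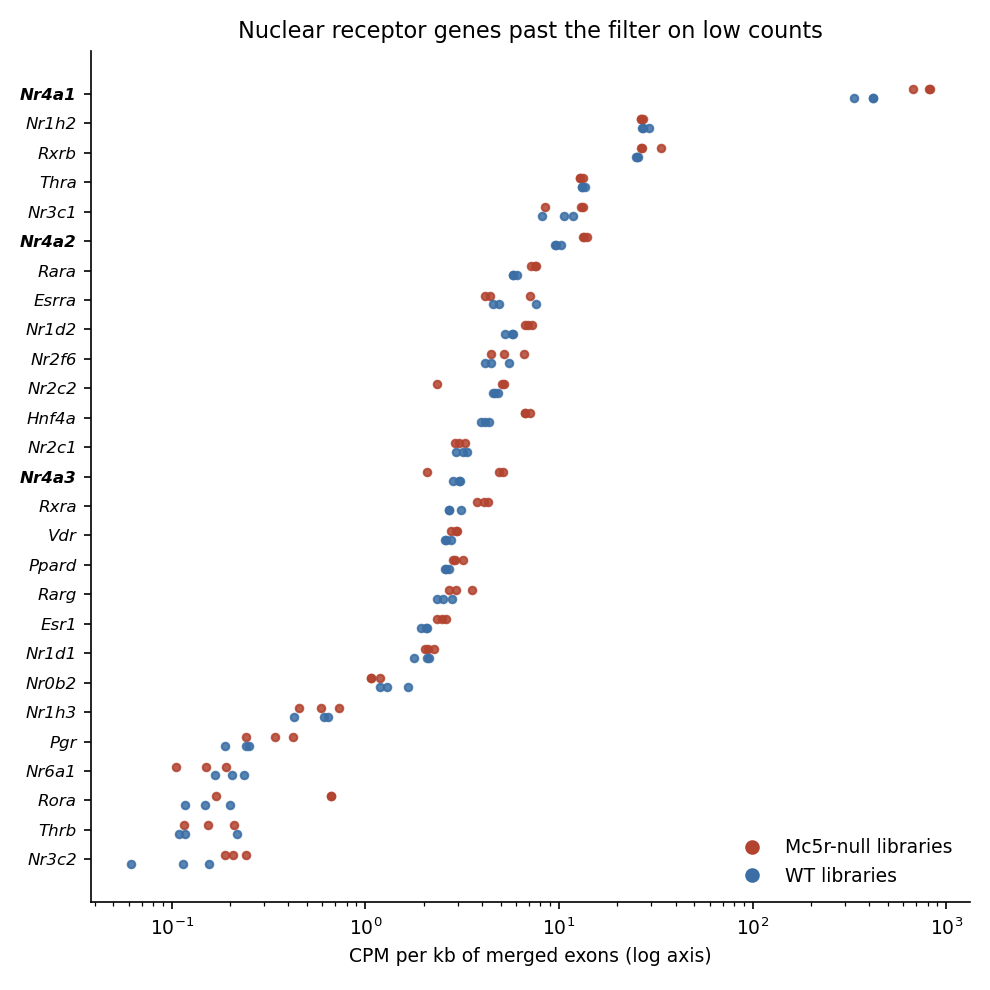
CPM per kb of merged exons on a log axis for nuclear receptor genes that passed the filter, Mc5r-null libraries in red above WT libraries in blue, ordered by WT mean. Nr4a1 stands apart from every other receptor in both genotypes, at 769 CPM per kb on average in Mc5r-null and 390 in WT cells, while Nr4a2 and Nr4a3 lie within the range of the others.

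Of the 46 other nuclear receptors, 25 passed the filter, 6 were called higher and 0 lower by edgeR with Benjamini-Hochberg adjustment, and their median log2 fold change was 0.22. Lower values at an unadjusted edgeR p under 0.05 numbered 0, and DESeq2 called 0 lower. Hnf4a, a receptor of liver and gut epithelium, rose by 0.74 ± 0.062 (SE) with an edgeR adjusted p of 4.7e-05, to 32.9 CPM in Mc5r-null against 20.1 CPM in WT cells. Rxra rose by 0.54 ± 0.088, Rara, the retinoic acid receptor, by 0.37 ± 0.057, Nr1d2, a circadian repressor, by 0.35 ± 0.060, and Esr1, the oestrogen receptor, by 0.33 ± 0.063. Of the 28 receptor genes fitted, Nr4a1 had the third highest log2 fold change. Of the other 46, 10 had no count in any library.

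The genes upstream of Nr4a transcription were mixed. Of 29 tested genes for CREB, its CRTC coactivators, protein kinase A, MEF2, SRF and NFAT inputs, 9 rose and 2 fell, with a median log2 fold change of 0.09. Creb1 itself had 74.7 CPM in Mc5r-null and 64.9 CPM in WT cells and was not called (edgeR adjusted p = 0.121). Called genes included the CREB coactivator gene Crebbp (0.22), the SRF partner gene Elk4 (0.44), Nfatc2 (0.51), Mef2b (2.10, at 2.28 CPM in Mc5r-null and 0.536 CPM in WT cells) and Hdac7 (0.43), whose product holds Nr4a1 down through MEF2D in mouse thymocytes. The call counts, 9 and 2 of 29, stand against 16.8% and 16.1% over all genes tested. The lower calls numbered 0 by DESeq2, with 1 lower at its unadjusted p under 0.05, 0 without Mc5r-null replicate 3, 1 without Mc5r-null replicate 2 or WT replicate 1, and 4 with library totals only.

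Genes induced by the same signals as the Nr4a genes were called in both directions. Of 17 tested early cyclic AMP and CREB targets, 3 rose and 5 fell, with a median log2 fold change of -0.04. Sik1, the salt-inducible kinase, rose by 0.23 ± 0.018 and Pde4b, a phosphodiesterase that breaks down cyclic AMP, by 0.40 ± 0.024. Dusp1, a phosphatase for MAP kinases, fell by 0.66 (SE 0.031), with 635, 587 and 614 CPM in Mc5r-null and 996, 1015 and 965 CPM in WT libraries. Fosb fell by 0.43 and the circadian repressor gene Nfil3 by 0.78. No called gene of this list had a log2 fold change as high as the 1.01 of Nr4a1. Without Mc5r-null replicate 2 the number that rose was 5, and by DESeq2 the number that fell was 3.

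Of 30 tested genes among the other immediate early genes, 15 fell and 9 rose, with a median log2 fold change of -0.09. Fos had 3605, 3563 and 3591 CPM in Mc5r-null and 4547, 4567 and 4576 CPM in WT libraries, a fall of 0.31 (SE 0.010) with an edgeR adjusted p of 8.6e-08. The genotypes of Fos did not overlap either, in the opposite order to those of Nr4a1. Klf6 fell by 0.63, Klf4 by 0.60, Klf2 by 0.52 and Dusp6, a phosphatase for ERK, by 0.72. Among the 9 that rose, on the side of Nr4a1, was Fosl2, a Fos family gene, by 0.88 ± 0.030. It averaged 209 CPM in Mc5r-null and 116 CPM in WT cells. Dusp5, another ERK phosphatase gene, rose by 0.57 ± 0.024. The largest change of the list was a fall, that of Atf3 by 1.06 (SE 0.037), with 157 CPM in Mc5r-null and 336 CPM in WT cells. Fosl2, Dusp5 and Atf3 were named after their values were seen.

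Genes that antigen receptors induce along with Nr4a1 in lymphocytes rose in 10 and fell in 2 of 22 tested genes, with a median log2 fold change of 0.19. Irf4, a transcription factor of activated lymphocytes and plasma cells, rose by 1.24 ± 0.065, with 40.6, 42.0 and 43.1 CPM in Mc5r-null and 16.7, 18.8 and 18.8 CPM in WT libraries. Slamf7, a surface receptor of plasma and NK cells, rose by 1.38 ± 0.102, and Nfkbia, the NF-kappaB inhibitor, by 0.35 ± 0.016. Gadd45b rose by 0.44 ± 0.044. Cd69, which like Nr4a1 is switched on within hours of T cell stimulation, fell by 0.60, with 318, 322 and 327 CPM in Mc5r-null and 496, 505 and 504 CPM in WT libraries. Cd69 and Nr4a1 lay on opposite sides of WT.

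**Figure D3:**
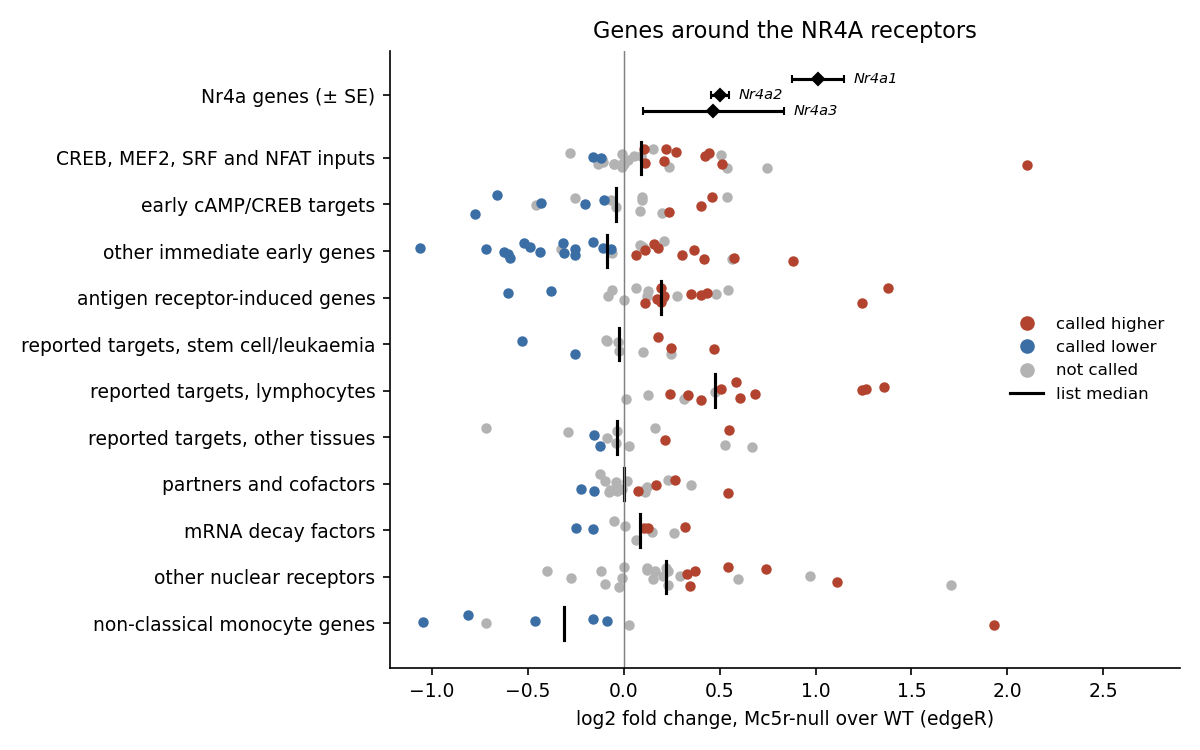
Fitted log2 fold change, Mc5r-null over WT, of each tested gene of 11 lists around the NR4A receptors, red where edgeR called it higher, blue where called lower and grey where not called, with the list median as a black bar and the Nr4a genes with their SE at the top. List medians run between -0.31 for non-classical monocyte genes and 0.48 for reported lymphocyte targets, and Nr4a1 lies at 1.01.

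Reported target genes were grouped by the tissue of the report. In stem cells and leukaemia, 3 of 11 rose and 2 fell, with a median of -0.02. Cebpa, the myeloid regulator that NR4A proteins are reported to induce in mouse stem cells, fell by 0.53 (SE 0.098, edgeR adjusted p = 0.0112), with 126, 99.5 and 127 CPM in Mc5r-null and 175, 177 and 170 CPM in WT libraries. Replicate 2 was the lowest Cebpa library in Mc5r-null cells, as it was for Nr4a1, but not in WT cells. Jun fell by 0.26, Junb rose by 0.18 ± 0.016, the cyclin gene Ccnd2 by 0.25 ± 0.022 and the NF-kappaB subunit gene Relb by 0.47 ± 0.115. Without Mc5r-null replicate 1, 5 genes of this list rose.

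Of 15 tested genes reported as NR4A targets in lymphocytes, 10 rose and 0 fell, with a median of 0.48. DESeq2 called 10 higher and 0 lower, and at an unadjusted edgeR p under 0.05 the number of lower genes was 0. Examples were Ndrg1 (0.61 ± 0.031), linked to T cell anergy, the checkpoint receptor genes Lag3 (0.59 ± 0.058) and Ctla4 (1.36 ± 0.158), and Tox (0.68 ± 0.090), a factor of T cell exhaustion. These genes averaged 38.5 CPM for Lag3, 4.53 CPM for Ctla4 and 10.7 CPM for Tox in Mc5r-null cells, and 26.3, 1.81 and 6.83 CPM in WT cells. Irf4 is also in this list. Markers of T and NK cells stood beside them as follows. Of 10 such genes 7 passed the filter, Cd3e, Cd2 and Lck were called higher and Nkg7 lower, and the list median was 0.55 on the log2 scale. The summed level was 257.6 to 259.5 CPM in Mc5r-null and 303 to 307 CPM in WT libraries, most of it Nkg7, a granule gene of cytotoxic cells, which averaged 205 CPM in Mc5r-null and 267 CPM in WT cells. Lck, a kinase of T cell signalling, averaged 41.4 CPM in Mc5r-null and 28.9 CPM in WT cells. Cd3e averaged 1.02 CPM in Mc5r-null and 0.223 CPM in WT cells, and Cd2 averaged 1.09 and 0.536 CPM. The calls of Cd3e and Cd2 therefore rest on few reads. The part of T and NK cells in the result was not tested.

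In other tissues, 2 of 13 tested targets rose and 2 fell, with a median of -0.04. Lpin1, a phosphatidate phosphatase gene of lipid synthesis, rose by 0.55 ± 0.092. Pomc, the classical NR4A target of the pituitary and the precursor of the melanocortin peptides, had 2.13, 2.98 and 3.00 CPM in Mc5r-null and 2.01, 1.94 and 1.81 CPM in WT libraries and was not called (edgeR adjusted p = 0.0651). Slc18a2, the monoamine transporter that Nr4a2 controls in neurons, rose by 0.21 ± 0.060, while Hif1a fell by 0.16 and Ucp2 by 0.13. DESeq2 called Lpin1 alone of these, and Slc18a2 lost its edgeR call without Mc5r-null replicate 1 or 3 and without WT replicate 1, 2 or 3.

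Genes whose products act on the receptors or their messages were called in both directions. Of 20 tested dimer partners, coactivators and corepressors, 4 rose and 2 fell, with a median of 0.0008. Besides Rxra, the coactivator gene Ncoa1 rose by 0.26 ± 0.064 and Trim28, a transcriptional corepressor gene, by 0.07 ± 0.018, while Mdm2 fell by 0.16. DESeq2 called 2 of the list higher and 0 lower, with 2 lower at its unadjusted p under 0.05, and did not call Ncoa1, Trim28 or Mdm2. The edgeR call of Ncoa1 was lost without Mc5r-null replicate 1, that of Trim28 without Mc5r-null replicate 3 or WT replicate 2 and with library totals only, and that of Mdm2 without Mc5r-null replicate 1 or WT replicate 3. The lower calls of the list numbered 1 without any single library other than Mc5r-null replicate 2. Of 10 genes for proteins that bind AU-rich elements and set the decay of short-lived messages such as those of the Nr4a family, 3 rose and 2 fell, with a median of 0.08. Zfp36 fell by 0.16 and Khsrp by 0.25, whereas Zc3h12a rose by 0.32 ± 0.035, Zfp36l2 by 0.13 ± 0.015 and Hnrnpd, which DESeq2 did not call, by 0.10 ± 0.021.

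Non-classical monocytes, the cells that need Nr4a1 to form, are marked by genes of which 11 were listed and 8 tested. Of these, 5 fell and 1 rose, with a median of -0.31, and the 5 that fell lay on the opposite side of WT to Nr4a1. Csf1r, the receptor for the monocyte growth factor, fell by 0.81 (SE 0.045), with 57.6, 62.7 and 61.2 CPM in Mc5r-null and 112, 110 and 105 CPM in WT libraries. Cx3cr1 fell by 1.05, at 4.39 CPM in Mc5r-null and 9.31 CPM in WT cells. Pglyrp1 fell by 0.46, and Spn by 0.16, at 393 CPM in Mc5r-null and 449 CPM in WT cells. The listed genes Ace, Treml4 and Adgre4 did not pass the filter, with genotype means of at most 0.804 CPM. Fabp4 rose by 1.93 ± 0.333, at 1.19 CPM in Mc5r-null and 0.313 CPM in WT cells. Of the 9 tested of 10 general monocyte and macrophage markers, 6 fell and 1 rose, and their summed level was 388 to 434 CPM in Mc5r-null and 548 to 646 CPM in WT libraries. Their part in the result was not tested. Over all lists together, each gene counted once, 186 of 239 genes were tested, 56 rose (16.8% of all genes did) and 35 fell (16.1% of all genes did), and the median was 0.10. The lists share genes and are not independent.

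The genes beside the family in the genome were called in both directions. Within 500 kb of the 3 start positions lay 75 genes, of which 19 were tested, 5 rose and 3 fell. Next to Nr4a1, the nearest tested gene upstream, Grasp, had a log2 fold change of 0.21 and was not called (edgeR adjusted p = 0.0952), and the nearest downstream, Atg101, had -0.04 and was not called either. Further away Slc4a8 fell by 0.60, Krt80 rose by 0.50 ± 0.101 and Acvr1b, an activin receptor gene, by 0.19 ± 0.053. Next to Nr4a2 only 2 genes were tested, the nearest being A930012O16Rik, and neither was called (edgeR adjusted p = 0.231 and 0.839). Next to Nr4a3, the nearest, Stx17, had -0.07 and was not called, while Erp44 fell by 0.29, Msantd3 by 0.37 and Invs rose by 0.30 ± 0.087. Of the 19, only Krt87 had a log2 fold change above the 1.01 of Nr4a1, at 1.38 ± 0.382, with 1.38 CPM in Mc5r-null against 0.536 CPM in WT cells, and it was named after its values were seen. The 5 higher calls depended on every library and on the tool, numbering 1 by DESeq2 and without Mc5r-null replicate 1, 2 without WT replicate 1 or 2, and 3 without Mc5r-null replicate 2, Mc5r-null replicate 3 or WT replicate 3. Acvr1b and Invs lost their calls by DESeq2.

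Each member was then set against the 9985 genes with a mean of at least 10 CPM by the root mean square difference of log2 CPM over the 6 libraries, each gene centred on its own mean. These distances are a description over 6 points that share depth and genotype. The 5 nearest to Nr4a1 were Ell2, an elongation factor used by plasma cells in immunoglobulin secretion, at 0.0958, then the immunoglobulin variable genes Igkv10-95, Ighv8-5 and Igkv14-130, and Hdgfl3 at 0.123. Ell2 had 43.5, 43.0 and 46.6 CPM in Mc5r-null and 25.1, 21.3 and 25.7 CPM in WT libraries. Replicate 2 was clearly its lowest library in WT cells, as for Nr4a1, but in Mc5r-null cells it was almost level with replicate 1. Igkv10-95 had 42.7, 42.0 and 45.1 CPM in Mc5r-null and 21.7, 20.2 and 21.3 CPM in WT libraries. In deviations from the genotype means alone the nearest were Rbm14, Ntpcr and Nemp2, of which Rbm14 had 103.0, 86.2 and 102.7 CPM in Mc5r-null and 123.4, 94.2 and 115.3 CPM in WT libraries.

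Because immunoglobulin genes stood near Nr4a1, plasma cell markers are given beside it. All 8 of 8 were called higher, with a median log2 fold change of 1.22, and their summed level was 2993 to 5973 CPM in Mc5r-null and 1959 to 2007 CPM in WT libraries. Most of the sum was Jchain, the joining chain of secreted antibodies, with 5603, 5495 and 2619 CPM in Mc5r-null and 1782, 1755 and 1743 CPM in WT libraries. Of 8 B cell markers 3 were higher and 2 lower, at a sum of 151 to 155 CPM in Mc5r-null and 119 to 125 CPM in WT libraries, and none of either list was at 0. In Mc5r-null replicates 1, 2 and 3 the immunoglobulin share of counts was nearly equal, at 6.87, 6.92 and 6.96%. Leaving 396 immunoglobulin genes out of the fit gave log2 fold changes of 1.02 for Nr4a1, 0.51 for Nr4a2 and 0.47 for Nr4a3. That fit changes the scaling but keeps all other transcripts of plasma cells in the counts. Which cells carried the Nr4a transcripts was not tested.

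Nr4a2 had closer company, with 5 genes at distances of 0.0180 to 0.0339. They were Epb41l4b, a FERM domain gene, Fnbp1l, an actin regulator gene, Prkch, a protein kinase C gene, Phlda1, and Adgrl4, an adhesion receptor of endothelium. Epb41l4b had 68.9, 68.8 and 73.7 CPM in Mc5r-null and 49.8, 51.4 and 53.3 CPM in WT libraries. The centred log2 values of Nr4a2 had a root mean square of 0.24, and of 0.0383 once the genotype means were taken off. Its nearest genes in deviations were Gprasp1, Clic4 and Eps15.

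Nr4a3 had 1 near gene, Clp1, an RNA kinase, at 0.0503, and then 2610001J05Rik, Rpl15, Txndc5 and Ipmk up to 0.171. Clp1 had 19.0, 8.38 and 19.0 CPM in Mc5r-null and 11.4, 12.4 and 10.7 CPM in WT libraries. All 5 shared the low value of Mc5r-null replicate 2, Txndc5 for example with 362, 190 and 336 CPM in Mc5r-null and 200, 208 and 209 CPM in WT libraries. In deviations from the genotype means, Taf5l and Ywhah came before Clp1, and Ywhah had 267, 112 and 267 CPM in Mc5r-null and 291, 284 and 288 CPM in WT libraries. The low library was therefore shared by genes whose other Mc5r-null libraries stood above, level with or below WT.

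**Figure D4:**
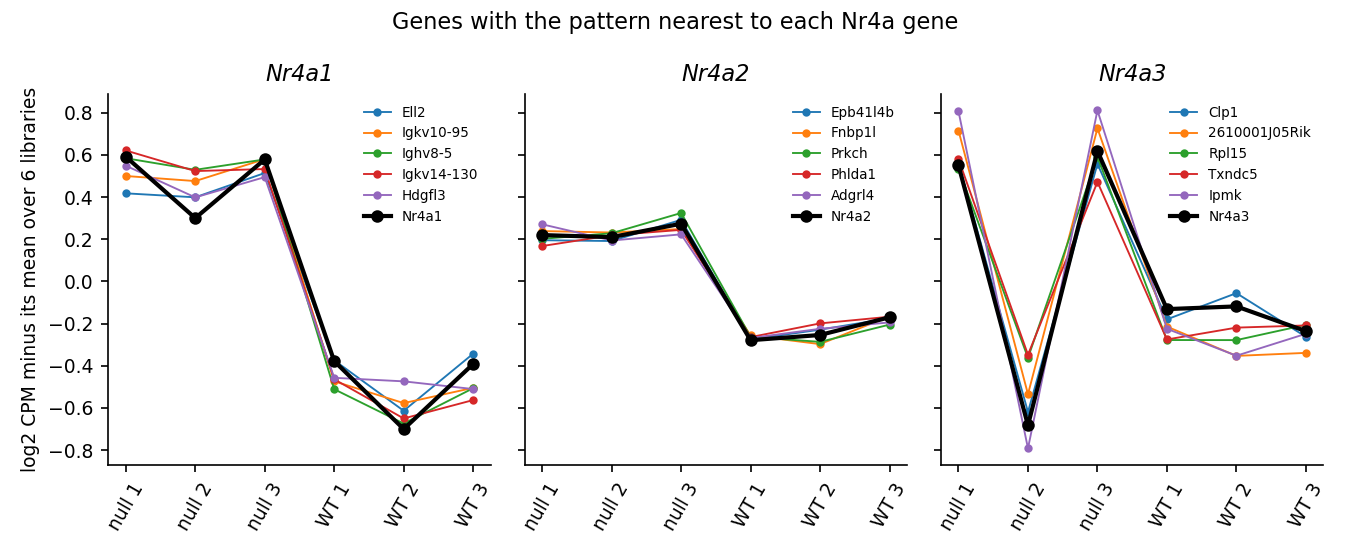
log2 CPM of each Nr4a gene (black) and of the 5 genes with the nearest pattern (colours), each minus its own mean over the 6 libraries, Mc5r-null libraries left of WT libraries; lines only join the libraries of 1 gene. Nr4a1 shows a step between genotypes with a dip in replicate 2 of each, Nr4a2 a plain step, and Nr4a3 a low Mc5r-null replicate 2.

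The other cell type lists gave the following values beside the Nr4a genes. Of 8 stem and progenitor gate markers 6 were called higher, at a sum of 1625 to 1652 CPM in Mc5r-null and 1312 to 1344 CPM in WT libraries. Of 8 neutrophil markers 2 were higher and 5 lower, at 2610 to 2676 CPM in Mc5r-null and 3567 to 3811 CPM in WT libraries. Of 7 tested mast cell and basophil markers 6 were lower, at 257 to 312 CPM in Mc5r-null and 484 to 525 CPM in WT libraries, with Cma1 at 0 throughout. Erythroid markers were higher in 8 of 9, at 171 to 172 CPM in Mc5r-null and 27.1 to 28.4 CPM in WT libraries. Megakaryocyte markers (2 higher and 1 lower of 5 tested) and endothelial and stromal markers (3 higher of 6 tested, Lepr at 0) summed to 141 to 145 and 112 to 123 CPM in Mc5r-null, and to 122 to 127 and 105 to 111 CPM in WT libraries. The part of these cells in the Nr4a values was not tested.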

How the data were processed

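Total RNA of bone marrow LSK cells was made into poly-A, stranded, paired-end libraries, per the labels' protocols, and sequenced in 6 libraries, 3 Mc5r-null and 3 WT. The authors deposited whole-number counts per gene, not normalized, and FPKM values, which are the same counts divided by the library total and a gene length. CASAVA 1.8, HISAT2, StringTie and edgeR and the build GRCm38 are named in the submitters' processing notes without their roles, so the counter, its annotation and its use of strand are not given in the sources used here. No annotated gene overlaps an Nr4a gene.

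From the deposited counts, CPM values were computed by scaling to the library total. The model was fitted with edgeR 4.0.16 (R 4.3.3) to the genes that filterByExpr kept (minimum count 10, minimum total 15). It used TMM scaling and edgeR's robust quasi-likelihood test of genotype, and genes were called at a Benjamini-Hochberg adjusted p under 0.05 over all genes tested. On data simulated for the comparison of Mc5r-null with WT, 51 of 100 genes changed 1.5-fold and 86 of 100 changed 2-fold were called. So were 23 of 15057 unchanged genes. Far fewer genes were changed in the simulation than were called in the data, so these rates need not hold for the data. Alternatives were other scalings (RLE, upper quartile, library totals only), DESeq2 1.42.0, limma-voom (limma 3.58.1), other filters, a replicate block, the fit without immunoglobulin genes and each library left out. Exact 95% Poisson intervals are for counting error alone, as reads copied by PCR do not stand for separate molecules. Within each genotype, every pair of libraries differed by more than counting error, in 16.8 to 17.5% of 12111 genes against 5%, so none was treated as a repeat deposit of another. This does not show that they came from separate animals. Promoter windows came from RefSeq (GRCm38.p6) and matched all 3 genes, and exon lengths came from GENCODE M21.

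The members, the 11 pathway lists, the 10 marker lists and the tests were chosen with earlier results of these data known. Named were up to 5 called genes with the smallest p of each pathway list, other nuclear receptors called at 1.5-fold or more, Pomc, Cebpa, the nearest tested neighbours on each side, up to 3 called neighbours of each member and the nearest genes by pattern. Creb1, Krt87, Fosl2, Dusp5, Atf3, the other nuclear receptors given by level and the marker genes were named outside that rule, after their values were seen. Some listed genes enter the counts but are not reported singly here.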

Additional observations from a re-analysis of the deposited data

How the results depend on the processing

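Of the 71 called genes picked by the naming rule, none changed its direction under any alternative run that included it. The direction of the other called genes was not compared. Of the uncalled genes named, Ntpcr ran at -0.06 to 0.11, Nemp2 at -0.17 to 0.04 and Taf5l at -0.45 to 0.05 on the log2 scale when each library was left out, and Ntpcr was -0.02 without scaling beyond library totals. The log2 fold change stayed at 0.91 to 1.10 for Nr4a1, 0.48 to 0.53 for Nr4a2 and 0.26 to 0.78 for Nr4a3 when each library was left out in turn. With 3 libraries per genotype, small differences could not be detected reliably. Nr4a3 had 176 to 431 counts per library. Without scaling beyond library totals, the partner genes called higher numbered 2 and the inducer genes called lower 4. By DESeq2 the counts over all genes were 1656 higher and 1446 lower, and the list counts were 1 higher and 0 lower for targets in other tissues, 2 higher and 0 lower for partners, 0 lower for inducers, 3 lower for early cyclic AMP targets and 1 higher for genomic neighbours; at its unadjusted p under 0.05 the lower genes numbered 2, 2 and 1 in the lists with 0. The cause of these shifts was not tested. Leaving out 1 library at a time gave 2080 to 2124 higher and 1986 to 2094 lower calls over all genes, 2 to 5 higher for early cyclic AMP targets, 0 to 2 lower for inducers, 1 to 3 higher for neighbours, 1 to 2 lower for partners, 3 to 5 higher and 2 to 3 lower for stem cell and leukaemia targets, and 1 to 2 higher for targets in other tissues. Among the genes called, those that lost their call by DESeq2 included Hif1a, Ucp2, Slc18a2, Ncoa1, Trim28, Mdm2, Hnrnpd, Acvr1b and Invs, and those that lost it without single libraries included Slc18a2, Ncoa1, Mdm2, Acvr1b, Invs and Trim28. The level per kb of Nr4a2 was 13.5 in Mc5r-null and 9.79 in WT cells with merged exons, against 8.64 and 6.25 FPKM, and that of Nr4a3 was 4.05 and 3.00, against 2.20 and 1.63 FPKM.

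Over genes, deviations from the genotype means correlated at 0.0025, -0.0408 and -0.0240 between libraries of the same replicate number. Between libraries of different numbers they correlated at -0.0237 to 0.0482. Such values over all genes cannot show whether a shared batch moved some genes, so it stays unknown whether the number pairs the libraries. With the number as a replicate block, 2254 genes were called higher and 2148 lower, targets in other tissues had 1 gene higher and neighbours had 3 higher, and the calls of Slc18a2 and Invs were lost. The log2 fold change under the block was 1.01 for Nr4a1, 0.50 for Nr4a2 and 0.38 for Nr4a3. The SE for Nr4a1 was 0.0139 with the block, against 0.135 in the main fit.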
